A study of Mus musculus with 4 samples.

Results

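The genes described here are 45 genes of natural killer (NK) and T cells, chosen by symbol from a list drawn up for the uterus and read in RNA sequencing of whole mouse uterus on gestational day 4. Of the 45, 44 matched a gene among the 57186 of the count table, 41 were also in the deposited TPM table (transcript level per length, scaled to one total in each library), and 43 had enough counts to be tested. Cd8b1, Ctla4 and Ifng were under the total count that the TPM table requires, Ctla4 also under the filter of the test, and Id2b matched no symbol. The 2 knockout libraries came from mice labelled Prss29Cre/Cre;Pgrf/f (Pgr gecKO), which carry Cre recombinase in both copies of Prss29, a protease gene of uterine glands, and floxed copies of Pgr, the progesterone receptor gene. The 2 control libraries came from mice labelled wild type. Cre is driven by a gland gene, so the design aims at gland epithelium and leaves the Pgr of lymphocytes and stroma outside its target. The groups also differ in Cre and in the altered Prss29 locus, whose effects and that of the loss of Pgr cannot be told apart. The labels used here give neither strain nor age.

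Uterine NK cells are resident innate lymphocytes of the endometrium. They multiply and fill with granules as the stroma decidualises after implantation, and in the mouse they take part in remodelling the arteries that supply the placenta. Their survival depends on interleukin 15, which stromal and myeloid cells present on its receptor alpha chain to the beta and gamma chains of the lymphocyte. NK cells share the zeta chain CD247, the kinases LCK and ZAP70 and the granule proteins with cytotoxic T cells, whereas CD3 with a rearranged receptor marks T cells and the activating receptor NCR1 marks NK cells and related innate lymphocytes.

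The libraries held 29932153 to 35149834 counts each. All 44 matched genes together took 10412 and 6340 counts in knockout libraries 1 and 2, against 9110 and 12553 in control libraries 1 and 2, so the values rest on small shares of each library. Prss29 had 0 and 0 counts in the knockout, against 1524 and 190 in the control. Pgr stood at 50.3 and 49.0 TPM in the knockout and 52.6 and 52.0 TPM in the control (log2 fold change −0.015, SE 0.21). Other cells of the uterus transcribe Pgr too, so a count over the whole gene in whole uterus does not check its deletion in glands. Markers of stroma (3126 to 5129 summed TPM over 8 genes), epithelium (1755 to 2212 over 7 genes), endothelium (255 to 452 over 5 genes) and smooth muscle were present in all 4 libraries, as the label of whole uterus states. Fold changes are knockout over control from edgeR's quasi-likelihood test with Benjamini-Hochberg adjustment over 20950 genes, at a threshold of 0.05. One gene of the whole table passed it, Gbp2b, an interferon-inducible GTPase gene, which is 0.00477% of the genes tested.

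The promoters of 4 NK and cytotoxic genes are shown as context for the group with the most abundant genes. These are the promoter windows of Ncr1, Prf1, Gzmb and Gzmc from RefSeq (build GRCm38.p6, 250 bases before to 50 bases after the start, written along the gene's strand), at chr7:4337465-4337764 on the plus strand, chr10:61297586-61297885 on the plus strand, chr14:56262285-56262584 on the minus strand and chr14:56234608-56234907 on the minus strand. Capitals mark letters that match, on either strand, the T-box motif GGTGTGA, the RUNX motif TGTGGTT, the ETS motif AGGAAG, the STAT motif TTCNNNGAA or the AP-1 motif TGANTCA, factor families that act in NK and T cells.
Ncr1: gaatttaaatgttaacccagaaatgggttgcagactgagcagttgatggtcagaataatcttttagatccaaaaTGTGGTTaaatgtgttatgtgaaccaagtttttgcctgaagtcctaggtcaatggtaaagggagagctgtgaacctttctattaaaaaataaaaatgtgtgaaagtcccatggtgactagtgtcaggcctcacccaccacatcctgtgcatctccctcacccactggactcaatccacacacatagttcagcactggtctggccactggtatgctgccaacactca
Prf1: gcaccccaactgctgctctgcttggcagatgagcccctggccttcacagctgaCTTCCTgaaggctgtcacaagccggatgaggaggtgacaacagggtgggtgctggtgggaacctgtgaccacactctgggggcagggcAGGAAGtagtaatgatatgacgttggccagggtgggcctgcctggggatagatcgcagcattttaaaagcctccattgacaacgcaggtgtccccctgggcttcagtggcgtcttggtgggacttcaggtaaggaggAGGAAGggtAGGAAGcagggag
Gzmb: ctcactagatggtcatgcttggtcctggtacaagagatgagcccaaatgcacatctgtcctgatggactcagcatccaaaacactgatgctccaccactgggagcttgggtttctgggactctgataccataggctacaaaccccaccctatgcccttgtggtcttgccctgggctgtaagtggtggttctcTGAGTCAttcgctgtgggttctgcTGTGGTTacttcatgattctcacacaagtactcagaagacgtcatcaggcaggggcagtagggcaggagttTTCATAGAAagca
Gzmc: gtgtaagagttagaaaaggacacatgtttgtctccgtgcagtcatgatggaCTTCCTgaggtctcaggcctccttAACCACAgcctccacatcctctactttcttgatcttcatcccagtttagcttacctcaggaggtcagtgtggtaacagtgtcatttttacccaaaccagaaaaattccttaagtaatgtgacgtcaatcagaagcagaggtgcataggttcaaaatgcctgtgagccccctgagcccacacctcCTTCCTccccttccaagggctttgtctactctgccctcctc
In these windows, Ncr1 held 1 RUNX match, Prf1 held 4 ETS matches, Gzmb held 1 match each for RUNX, STAT and AP-1, and Gzmc held 1 RUNX and 2 ETS matches. The table has 35 promoters of 29 of the NK and T cell genes among 32851 promoters in all. The ETS letters stood in 21 of the 35, against 35.4% of all promoters, and the RUNX letters in 9 of the 35 (25.7%), against 5.27%. The STAT letters stood in 17.1% against 8.30%, the AP-1 letters in 8.57% against 7.81% and the T-box letters in 5.71% against 3.98%. Some genes have several overlapping windows, and these matches are a description of letters only.

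Trbc1 and Trbc2 encode alternative constant regions of the same receptor chain, and their GENCODE M21 transcripts share 87.0% of 676 aligned bases. The sources used here do not say how reads that match both genes were counted, so the split of the values between Trbc1 and Trbc2 is uncertain. Exons of 5 of the NK and T cell genes, Cd247, Foxp3, Gata3, Il2rg and Klrb1c, overlap those of a protein-coding gene in GENCODE M21. The part of the overlapping genes in these values was not tested.

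No NK or T cell gene passed the test, with 0 called higher, beside 0.00477% of all genes, and 0 called lower, beside 0%. DESeq2 and limma-voom also called 0 of them. The 43 tested genes had unadjusted p of 0.116 or more, so 0 were at an unadjusted p under 0.05, against 3.01% of all genes tested. Their median log2 fold change was −0.17, beside 0.0063 for all genes tested, and 33 of the 43 were below 0 (76.7%), beside 48.9% of all genes. Both knockout libraries lay below both controls for 6 genes (14.0%), beside 13.1% of all genes, and above both controls for 2 genes (4.65%), beside 12.2%. The 6 are a share near that of all genes. The median depended on single libraries, at −0.46 without control replicate 1, 0.12 without control replicate 2, −0.47 without knockout replicate 1 and −0.051 without knockout replicate 2. In whole tissue, fewer cells of a type and less RNA per cell cannot be told apart.

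**Figure D1:**
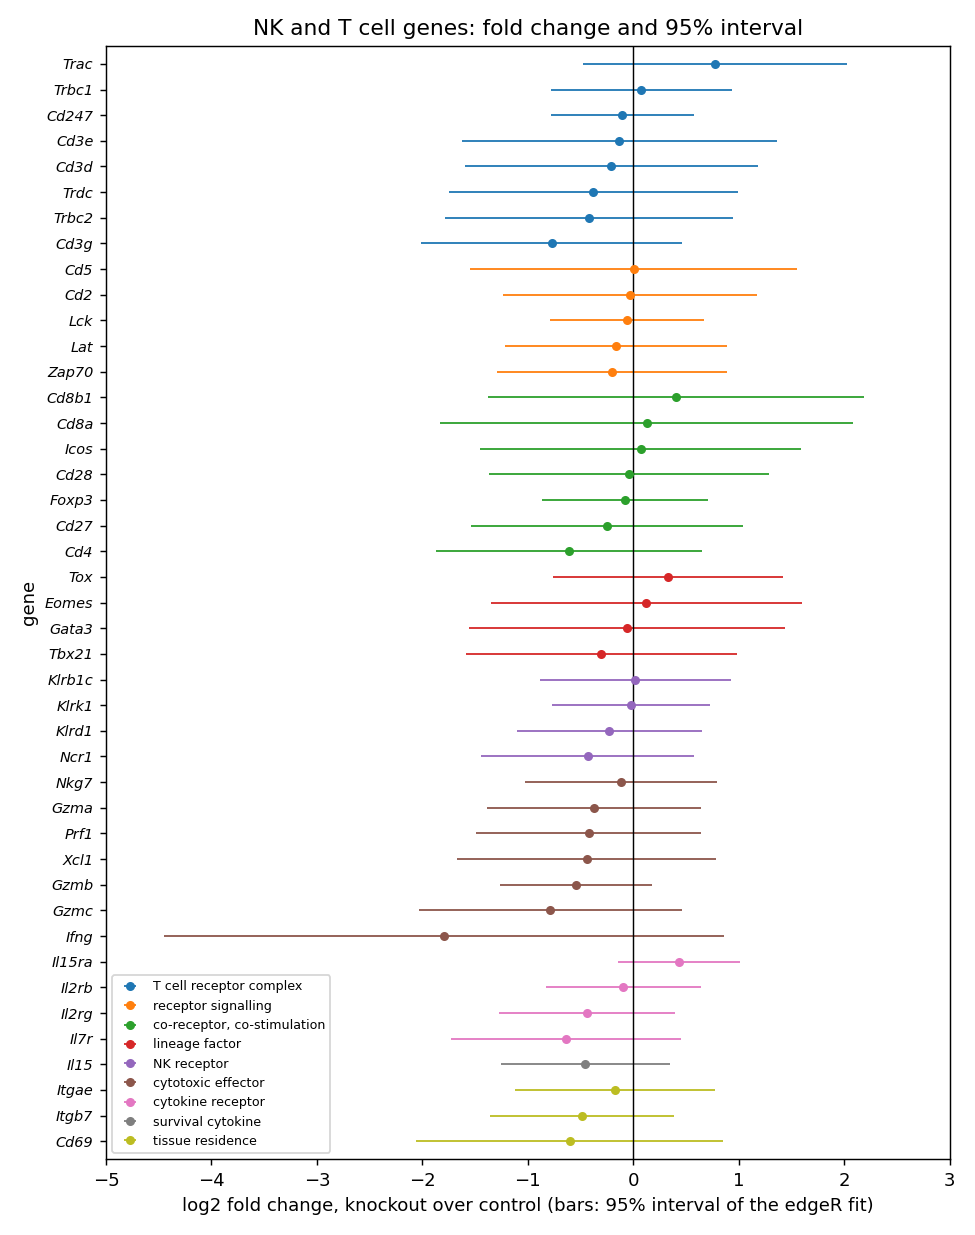
Log2 fold change (knockout over control) of the 43 tested NK and T cell genes with 95% intervals of the edgeR fit, coloured by role. All 43 intervals include 0, and 33 of the points lie below 0.

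The intervals show what these 4 libraries could resolve. The standard errors ran from 0.24 for Il15ra to 1.11 for Ifng, with a median of 0.46. For 7 genes, Trbc1, Cd247, Lck, Foxp3, Klrb1c, Klrk1 and Il2rb, the interval lay within a 2-fold change in both directions. A 2-fold fall lay outside the interval for 10 genes and a 2-fold rise for 29, so a moderate loss of NK or T cell RNA was not detectable for most of the genes.

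Cytotoxic effectors included the most abundant of the genes, but not all of them ranked high. Xcl1, Gzma and Prf1 (mean 20.9, 14.0 and 9.14 TPM over the libraries) lay below Il2rg (26.0), Il2rb (24.6) and Trbc1 (23.5). Gzmc and Gzmb, which encode granule serine proteases (granzymes C and B), had the highest mean TPM of all 41. Gzmc stood at 58.6 and 16.9 TPM in knockout libraries 1 and 2, against 50.9 and 79.9 TPM in control libraries 1 and 2. Knockout library 2 was the lowest and knockout library 1 lay between the controls. Its log2 fold change was −0.79 (SE 0.52, 95% interval −2.04 to 0.46), and it was −1.79 without knockout replicate 1 and −0.20 without knockout replicate 2. Gzmb stood at 53.3 and 29.3 TPM in the knockout, against 55.0 and 68.3 TPM in the control. Both knockout libraries lay below both controls, by little in the case of knockout library 1, and the log2 fold change was −0.55 (SE 0.30, unadjusted p 0.116 in edgeR's test).

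Nkg7, a membrane protein of cytotoxic granules, stood at 34.98 and 19.3 TPM in the knockout, against 24.0 and 36.1 TPM in the control. Xcl1, a chemokine that draws cross-presenting dendritic cells, stood at 23.1 and 11.9 TPM against 15.7 and 33.0 TPM in the control. Gzma, which encodes granzyme A, stood at 14.5 and 9.54 TPM in the knockout, against 11.7 and 20.3 TPM in the control. In these 3 genes the libraries had the order of Gzmc, with knockout library 2 the lowest and control library 2 the highest, and the groups overlapped. The pore-forming perforin gene Prf1 stood at 11.3 and 4.23 TPM in the knockout, against 10.2 and 10.9 TPM in the control, so that knockout library 2 alone was apart. Ifng, which encodes interferon gamma, had 9 and 0 counts in the knockout, against 16 and 19 counts in the control. A count of 0 in knockout library 2 allows up to 3 counts, or 0.107 CPM (counts scaled to library size). The fitted value was −1.80 on the log2 scale (SE 1.11). The 7 effectors all lay below 0 in log2 fold change (median −0.44), beside 48.9% of all genes. Without control replicate 2, Nkg7 was at 0.21, Gzma at 0.076 and Xcl1 at 0.19, and without knockout replicate 2, Nkg7 was at 0.18 and Prf1 at 0.059.

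NK receptor genes were detected in all 4 libraries. Ncr1, which encodes NKp46, stood at 11.4 and 7.16 TPM in the knockout, against 9.27 and 16.5 TPM in the control. Control library 2 was the highest and the groups overlapped, with a log2 fold change of −0.43 (SE 0.42). Klrb1c, which encodes NK1.1, stood at 5.30 and 3.48 TPM in the knockout, against 4.82 and 4.11 TPM in the control, and its log2 fold change was 0.017 (SE 0.38). Klrd1, which encodes CD94, the partner of the NKG2 receptors, stood at 14.8 and 18.7 TPM in the knockout, against 16.9 and 24.4 TPM in the control. It did not share the low value of knockout library 2. Klrk1, which encodes NKG2D, stood at 3.35 to 4.24 TPM over the 4 libraries, the narrowest spread of these 4 receptors.

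**Figure D2:**
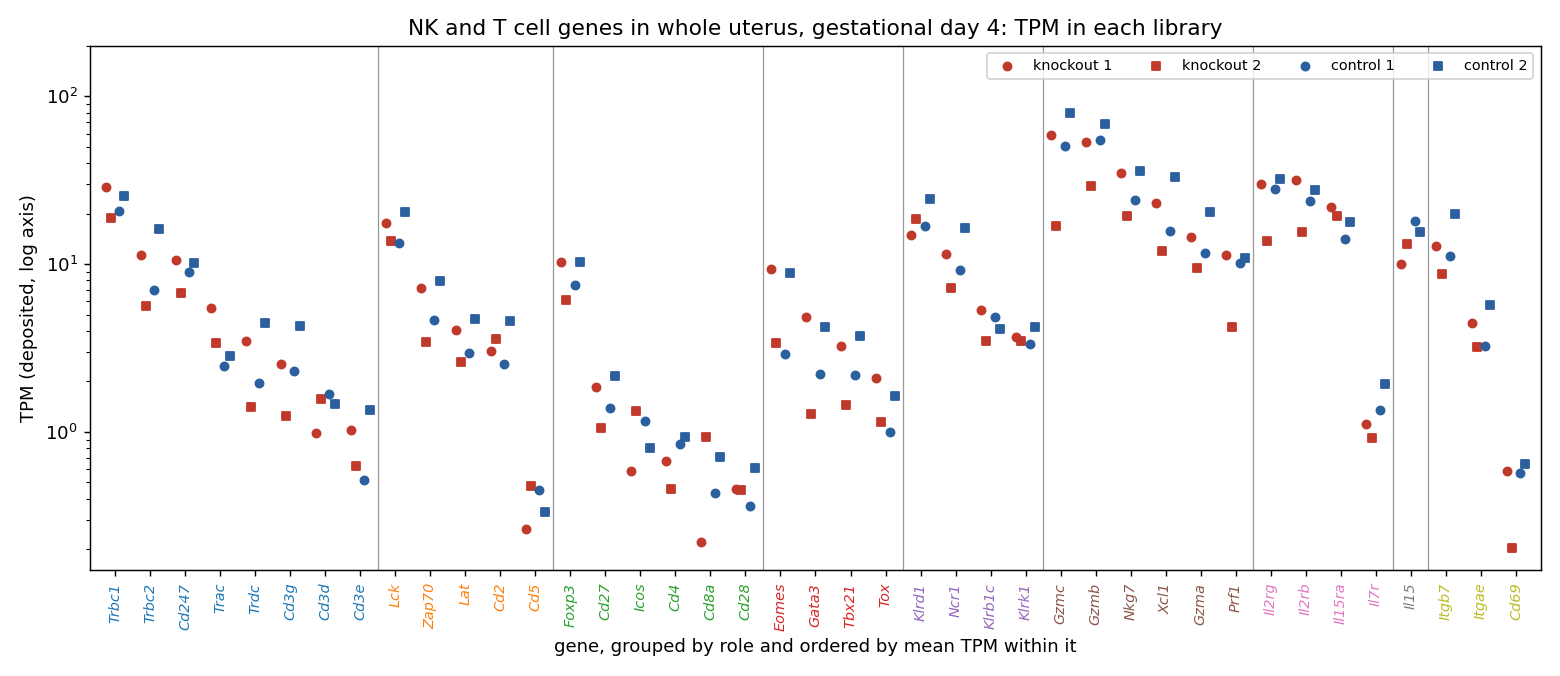
Deposited TPM (log axis) of the 41 NK and T cell genes in the TPM table, in each knockout library (red) and control library (blue), grouped by role. In mean TPM, Gzmc and Gzmb are the highest, and Cd5, Cd28, Cd69, Cd8a, Cd4, Cd3e and Icos are the lowest.

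The CD3 chains were less abundant per length than the NK receptor Ncr1. The CD3 chain genes Cd3d, Cd3e and Cd3g, whose proteins carry the receptor's signal, summed to 4.56 and 3.45 TPM in the knockout, against 4.51 and 7.11 TPM in the control. Cd3e stood at 1.03 and 0.625 TPM in the knockout, against 0.519 and 1.34 TPM in the control, on 23 to 60 counts a library. Per length, Ncr1 was 11.1 and 11.4 times as abundant as Cd3e in knockout libraries 1 and 2, against 17.9 and 12.3 times in control libraries 1 and 2. The ratio depended on the T cell gene taken. Ncr1 was 2.10 to 5.82 times as abundant as Trac over the 4 libraries, and Trbc1 stood above Ncr1 in each of them. The shared zeta chain gene Cd247 was 7.55 to 17.3 times and the kinase gene Lck 15.2 to 25.8 times as abundant as Cd3e over the 4 libraries. In GENCODE M21 the exons of Cd247 overlap those of Pou2f1, a transcription factor gene at 5.60 to 9.003 TPM, and the part of Pou2f1 reads in the Cd247 value was not tested. Cd3g had the lowest fold change of the 43 genes after Ifng and Gzmc, with 2.54 and 1.25 TPM in the knockout against 2.31 and 4.31 TPM in the control (log2 fold change −0.77, SE 0.52). Cd3d stood at 0.991 and 1.57 TPM in the knockout, against 1.67 and 1.46 TPM in the control.

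The constant region genes did not follow one pattern. Trac, the receptor alpha constant region, stood at 5.45 and 3.38 TPM in the knockout, against 2.46 and 2.83 TPM in the control. Both knockout libraries lay above both controls, on 51 and 31 counts against 25 and 29 counts, and the log2 fold change was 0.77 (SE 0.52, unadjusted p 0.184 in edgeR's test). Trbc1 stood at 28.7 and 18.8 TPM in the knockout, against 20.9 and 25.5 TPM in the control, a log2 fold change of 0.077 (SE 0.36). Trbc2 stood at 11.4 and 5.60 TPM in the knockout, against 7.06 and 16.2 TPM in the control. Per length, Trbc1 exceeded Trac 5.27- and 5.57-fold in the knockout, against 8.47- and 9.01-fold in the control. The delta constant region gene Trdc stood at 3.46 and 1.40 TPM in the knockout, against 1.95 and 4.47 TPM in the control.

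Of the 5 receptor signalling genes, only Lck had an interval within a 2-fold change in both directions. Lck stood at 17.6 and 13.7 TPM in the knockout, against 13.4 and 20.4 TPM in the control, with a 95% interval of −0.79 to 0.67 for its log2 fold change. Zap70, the kinase that binds the activated zeta chain, stood at 7.21 and 3.45 TPM in the knockout, against 4.62 and 7.88 TPM in the control. The adaptor gene Lat, the adhesion receptor gene Cd2 and the inhibitory receptor gene Cd5 had log2 fold changes of −0.16 (SE 0.44), −0.034 (SE 0.51) and 0.0029 (SE 0.65).

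Genes of T cell subsets had few counts, with 1 exception. Cd4 stood at 0.669 and 0.456 TPM in the knockout, against 0.845 and 0.929 TPM in the control, and the groups did not overlap (log2 fold change −0.61, SE 0.53). Cd8a had 8 and 33 counts in the knockout, against 17 and 28 counts in the control. Cd8b1, the other CD8 chain gene, had 10 and 14 counts in the knockout, against 6 and 15 counts in the control. Icos, a co-stimulatory receptor gene, stood at 0.583 and 1.34 TPM in the knockout, against 1.15 and 0.799 TPM in the control. In Cd5, Cd8a, Cd8b1 and Icos knockout library 2 was the highest of the 4 in CPM, on 6 to 45 counts a library. In Cd4, Cd27 and Foxp3 it was the lowest, as in the cytotoxic genes. Cd27 and Cd28, also co-stimulatory receptor genes, had log2 fold changes of −0.25 and −0.041.

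The exception was Foxp3, the transcription factor of regulatory T cells. Foxp3 stood at 10.3 and 6.13 TPM in the knockout, against 7.51 and 10.3 TPM in the control, 8.88 to 15.4 times the level of Cd4 in the 4 libraries. Ctla4, a regulatory T cell receptor gene, had 4 and 8 counts in the knockout, against 3 and 10 counts in the control. In GENCODE M21, an annotation of another build than the one the reads were aligned to, exons of Foxp3 overlap those of the protein-coding genes Ccdc22 and Ppp1r3f on the opposite strand. Ccdc22, which is broadly expressed in other tissues, had 9 and 3 counts in the knockout, against 8 and 8 in the control, and Ppp1r3f had 95 and 60 counts against 57 and 76 in the control. The sources used here do not give the strand setting of the counting, and the part of these genes in the Foxp3 value was not tested. Its log2 fold change was −0.076, with a 95% interval of −0.86 to 0.71.

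Lineage transcription factors differed more between replicates than between groups. Eomes, which with Tbx21 directs NK cell maturation, stood at 9.35 and 3.39 TPM in the knockout, against 2.93 and 8.89 TPM in the control, so that each group held 1 high and 1 low library. Gata3 stood at 4.85 and 1.28 TPM in the knockout, against 2.20 and 4.20 TPM in the control, and is also transcribed by other cells than lymphocytes. Tox, a factor of NK and T cell development, stood at 2.09 and 1.14 TPM in the knockout, against 0.993 and 1.63 TPM in the control (log2 fold change 0.33, SE 0.46). Tbx21 had a log2 fold change of −0.30 (SE 0.54).

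Il15 and Il15ra, the cytokine and its presenting chain, lay on opposite sides of 0. Il15 stood at 9.99 and 13.3 TPM in the knockout, against 18.2 and 15.4 TPM in the control. Both knockout libraries lay below both controls, with a log2 fold change of −0.46 (SE 0.34, 95% interval −1.25 to 0.34). Il15ra, whose product presents interleukin 15, stood at 21.9 and 19.5 TPM in the knockout, against 14.1 and 17.8 TPM in the control. Both knockout libraries lay above both controls, with a log2 fold change of 0.43 (SE 0.24, 95% interval −0.14 to 1.01). With each library left out in turn, the log2 fold change ran from −0.79 to −0.18 for Il15 and from 0.28 to 0.61 for Il15ra. Groups that do not overlap fix the sign in such runs in advance. The ratio of Il15ra to Il15 was 2.19 and 1.47 in the knockout, against 0.777 and 1.15 in the control. This ratio was chosen after the values were seen, and an exact two-sided permutation test of its log2 gave p = 0.333, the smallest that 2 against 2 libraries allow. That outcome was fixed in advance, because the groups of both genes did not overlap and lay in opposite orders. The test therefore adds nothing to the values themselves.

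Il2rb, the gene of the receiving beta chain, stood at 31.6 and 15.6 TPM in the knockout, against 23.9 and 27.5 TPM in the control (log2 fold change −0.095, SE 0.31). Il2rg, the gamma chain gene, stood at 29.97 and 13.7 TPM in the knockout, against 28.0 and 32.3 TPM in the control (log2 fold change −0.44, SE 0.35). In both, knockout library 2 was apart from the other 3. Il7r, the interleukin 7 receptor alpha chain gene, stood at 1.11 and 0.919 TPM in the knockout, against 1.34 and 1.94 TPM in the control, without overlap (log2 fold change −0.64, SE 0.46).

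Genes of tissue residence were below 0 without passing. Itgb7, the beta 7 integrin gene, stood at 12.8 and 8.77 TPM in the knockout, against 11.2 and 19.9 TPM in the control, and Itgae, which encodes its partner CD103, had a log2 fold change of −0.17. Cd69, an early activation and retention receptor gene, had 38 and 13 counts in the knockout, against 40 and 46 counts in the control. Its groups did not overlap in CPM but did in TPM, at 0.583 and 0.204 against 0.566 and 0.646.

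Knockout library 2 was the lowest of the 4 for 25 of the 43 genes (58.1%), beside 31.6% of all genes tested, and control library 2 was the highest for 27 (62.8%), beside 24.8%. Both held at once for 20 genes (46.5%), beside 13.6% of all genes. Control library 2 was the lowest for 0 of the 43. Summed over the 41 genes of the TPM table, the level was 473 and 280.0 TPM in the knockout, against 392.2 and 557 TPM in the control, so that knockout library 1 lay between the controls.

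**Figure D3:**
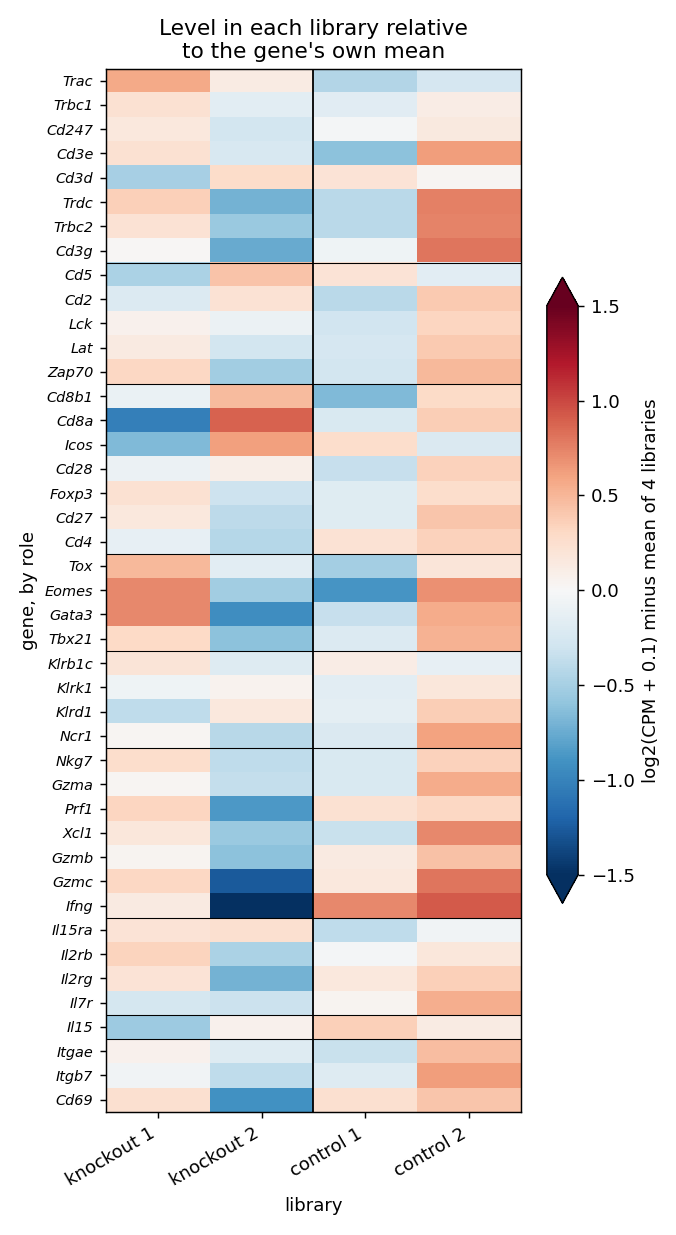
Level of the 43 tested genes in each library as log2(CPM + 0.1) minus the gene's mean over the 4 libraries, by role. Knockout library 2 is the lowest for 25 genes and control library 2 the highest for 27, while Il15, Il15ra, Trac, Cd5, Cd8a and Icos show other orders.

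The smooth muscle and red cell sums ran in the reverse order of the NK and T cell sum. The 6 smooth muscle markers summed to 6522 and 9822 TPM in the knockout, against 7955 and 2494 TPM in the control, and the 5 red cell markers to 173 and 504 TPM in the knockout, against 464 and 138 TPM in the control. The 8 pan-leukocyte markers summed to 240.0 and 208 TPM in the knockout, against 256 and 335 TPM in the control, with 3 of 8 genes below both controls in both knockout libraries, beside 13.1% of all genes. The 12 macrophage and dendritic cell markers summed to 914 and 834 TPM in the knockout, against 1146 and 1616 TPM in the control, with 8 of 12 genes below both controls, beside 13.1% of all genes. The 5 endothelial markers summed to 452 and 255 TPM in the knockout, against 409 and 359 TPM in the control. The 7 measured B cell and follicle markers summed to 11.9 and 5.97 TPM in the knockout, against 8.35 and 8.70 TPM in the control, with Ms4a1 and Pax5 not in the TPM table. The 4 measured plasma cell markers summed to 147 and 138 TPM in the knockout, against 788 and 765 TPM in the control. The 4 measured adipocyte markers summed to 0.464 and 73.6 TPM in the knockout, against 1.28 and 12.6 TPM in the control, so that knockout library 2 stood apart. The part of these tissue differences in the values of the NK and T cell genes was not tested.

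**Figure D4:**
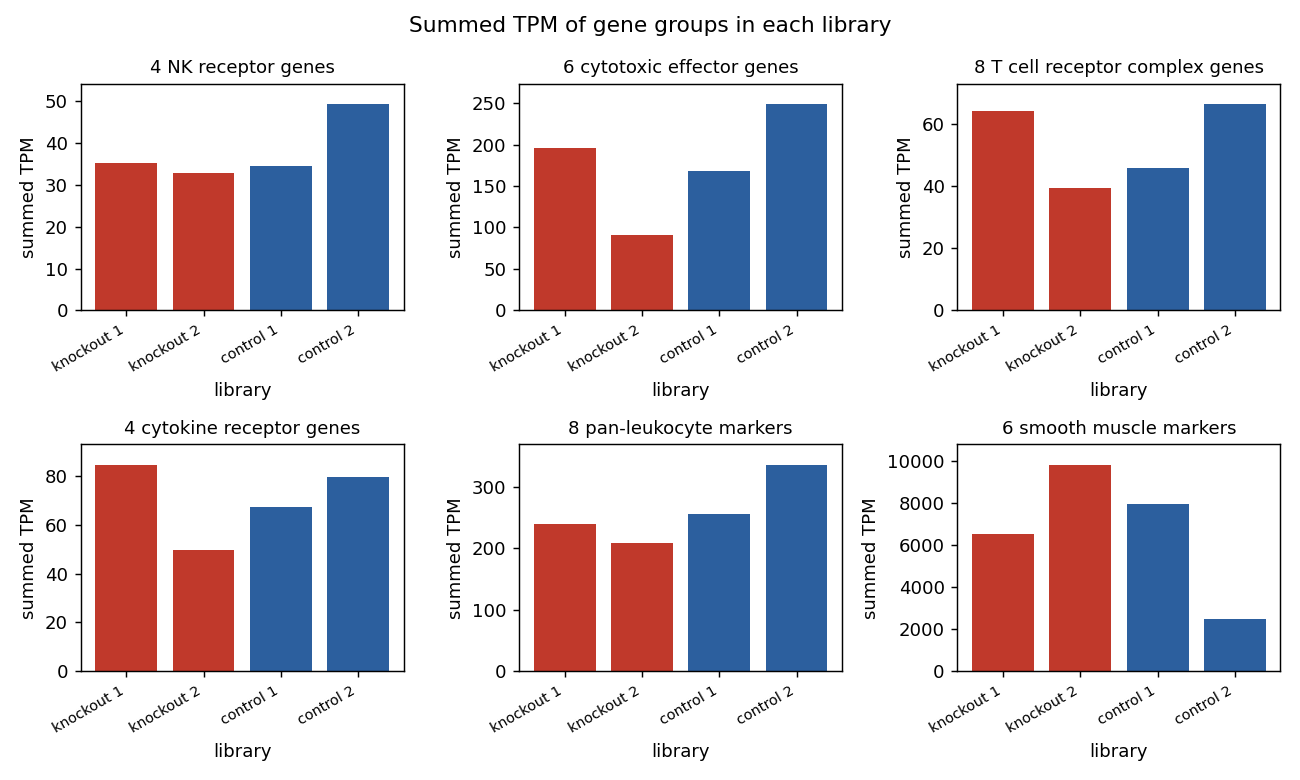
Summed TPM of 4 groups of NK and T cell genes and of 2 marker lists in each library, knockout in red and control in blue. The cytotoxic, receptor complex and leukocyte sums are lowest in knockout library 2 and highest in control library 2, where smooth muscle is highest and lowest.

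Related genes outside the list did not pass either. Of 117 further genes of NK receptors, effectors, T cells, innate lymphoid cells, gamma chain cytokines and NKG2D or MHC ligands, 102 were tested and 0 were called higher and 0 lower. At an unadjusted p under 0.05 there were 7, beside 3.01% of all genes, and the median log2 fold change of the 102 was −0.16. Among the other NK receptor and adaptor genes, 2 of 26 lay above both controls in both knockout libraries, beside 12.2% of all genes, and 9 of 26 below, beside 13.1%. Fcer1g, a signalling adaptor of NK, mast and myeloid cells, stood at 38.9 and 27.4 TPM in the knockout, against 77.4 and 98.3 TPM in the control (log2 fold change −1.36, SE 0.28, edgeR adjusted p 0.727). Tyrobp, a like adaptor, stood at 65.9 and 61.8 TPM in the knockout, against 96.3 and 94.1 TPM in the control. Macrophages transcribe both genes, and the part of macrophages, whose summed markers also stood lower in the knockout, in these values was not tested. Klra8, an activating Ly49 receptor gene, stood at 20.2 and 26.4 TPM in the knockout, against 17.6 and 24.8 TPM in the control.

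The remaining lists were led mostly by genes that other uterine cells transcribe too. Srgn, the granule proteoglycan gene, stood at 130.1 and 144 TPM in the knockout, against 158 and 146 TPM in the control. Tnfsf10, a death ligand gene, stood at 38.8 and 24.3 TPM in the knockout, against 23.4 and 37.4 TPM in the control. Ctsw, a lymphocyte cathepsin gene, stood at 25.0 and 14.9 TPM in the knockout, against 15.9 and 25.5 TPM in the control. In Ctsw and Tnfsf10 each group held 1 high and 1 low library, as in Eomes.

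In the T cell list the median log2 fold change was −0.23 over 28 genes. Thy1, a surface glycoprotein gene also of stromal cells, stood at 216 and 103 TPM in the knockout, against 212 and 202 TPM in the control, so that knockout library 2 was apart. S1pr1, an egress receptor gene also of endothelium, stood at 40.2 and 41.6 TPM in the knockout, against 46.5 and 32.3 TPM in the control. Tcf7, a transcription factor gene, stood at 32.0 and 26.2 TPM in the knockout, against 40.4 and 32.0 TPM in the control. Tcf7 had its lowest value in knockout library 2 and S1pr1 in control library 2.

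In the innate lymphoid list the median was −0.030 over 10 genes, and its most abundant members encode transcription factors. Id2 stood at 132 and 112 TPM in the knockout, against 87.6 and 115 TPM in the control. Klf2 stood at 92.9 and 72.8 TPM in the knockout, against 63.5 and 100.2 TPM in the control. Nfil3 stood at 46.3 and 86.0 TPM in the knockout, against 108 and 45.6 TPM in the control, and in TPM the groups overlapped in these 3 genes. In CPM the groups of Id2 did not overlap, at 97.5 and 95.1 in the knockout, against 66.7 and 87.2 in the control. In the gamma chain and JAK-STAT list the median was −0.11 over 18 genes. Jak3, the kinase gene of the gamma chain, stood at 51.0 and 23.4 TPM in the knockout, against 41.4 and 41.4 TPM in the control, the order of Il2rg in knockout library 2. Mcl1, a survival gene, stood at 202 and 223 TPM in the knockout, against 245 and 208 TPM in the control. Jak1, a kinase gene, stood at 99.2 and 120.2 TPM in the knockout, against 172 and 96.2 TPM in the control. The groups overlapped in both. Among ligands of NK receptors, with a median of −0.12 over 8 genes, B2m, the light chain gene of class I MHC, stood at 2014 and 1187 TPM in the knockout, against 1799 and 2954 TPM in the control. Knockout library 2 was its lowest and control library 2 its highest. Clec2d, a ligand gene for an NK1.1 family receptor, stood at 117 and 111 TPM in the knockout, against 87.0 and 105 TPM in the control. H2-T23, whose product Qa-1 is bound by CD94 with NKG2 receptors, stood at 105 and 70.4 TPM in the knockout, against 58.9 and 106 TPM in the control.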

How the data were processed

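RNA was sequenced from whole uterus in 2 knockout and 2 control samples, grouped by their titles. The submitters' processing notes name Trimmomatic, STAR, featureCounts and the build GRCm39, and the design text names bcl2fastq 2.17 for base calls. For the annotation, the strand setting and the other versions, the sources used here say nothing. The authors deposited whole-number counts for 57186 genes, and TPM for the 19991 genes with a total count of at least 51, equal to count over gene length rescaled to a fixed total (checked). Symbols missing there came from a reference table.

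The counts were tested with edgeR 4.0.16 in R 4.3.3 (TMM factors, filterByExpr with minimum count 10, group as the only term), which kept 20950 genes. Standard errors and 95% intervals come from that fit. The procedure was also run on counts simulated as independent libraries, where only the sign and size of large seeded changes were set as a check. That run held no pattern shared by genes across libraries, so it does not bear on the small shifts given here. The alternatives tried were DESeq2 1.42.0, RLE or upper-quartile factors, limma-voom and limma-trend on log2(TPM + 1) with limma 3.58.1, no and a stricter filter, each library left out, and a replicate block. The labels do not say whether replicates were separate animals, so the p-values speak only of these 4 samples, whose spread may be technical. Limits from counts cover counting error only.

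The genes and lists were chosen with earlier results of these data known. Named in every sample are genes whose groups do not overlap, the 8 highest and 8 lowest fold changes, the 8 highest mean TPM and defining genes, and of related lists the 3 with the highest mean TPM. Other genes given by sample, among them Foxp3, Cd247, Cd3d, Trdc, Lck, Zap70, Gata3 and Klrk1, were chosen after their values were seen. Promoters were RefSeq windows of GRCm38.p6, and transcripts were aligned with Biopython 1.88. One sequence is not reported here.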

Additional observations from a re-analysis of the deposited data

How the results depend on the processing

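In every alternative that was run, 0 of the NK and T cell genes were called higher and 0 lower, with smallest adjusted p of 0.414 with a crossed replicate block and 0.432 without knockout replicate 1. The count over all genes was 1 in the main test, 1 with RLE or upper-quartile factors, 85 with DESeq2, 0 with limma-voom, 54 with no low-count filter, 0 with a minimum count of 50, 3 with limma-trend on log2(TPM + 1) and 12 to 22 with 1 library left out, where the lone sample of a group is assumed to vary like the other group. With the replicate number as a block it was 32, and with the numbers crossed, added after seeing the data, 37. Replicates of the same number did not deviate together (r = −0.44 across 20950 genes, which are not independent replicates). This gave no sign that the numbers pair the samples, but it cannot exclude it, since other variation may hide a shared part. The median of the NK and T cell genes ran from −0.21 to −0.17 in the alternatives with 4 libraries and from −0.47 to 0.12 with 1 left out. Log2 fold changes that changed sign were all of genes that passed no test. With upper-quartile factors Cd5 was at −0.022. With limma-voom Cd3e was at 0.011, Cd2 at 0.0034, Cd5 at −0.083, Cd8a at −0.26, Cd28 at 0.0036, Icos at −0.089. With no low-count filter Cd5 was at −0.0038. With limma-trend on log2(TPM + 1) Cd5 was at −0.025, Cd8a at −0.026, Icos at −0.033, Klrb1c at −0.037. With the replicate block Cd2 was at 0.0098, Cd5 at −0.059, Cd8a at −0.17, Cd28 at 0.0031, Icos at −0.050. With the crossed block Cd2 was at 0.0019, Cd5 at −0.047, Cd8a at −0.11, Icos at −0.033. With 1 library left out, log2 fold changes that changed sign in at least 1 run had these ranges: Trbc1 −0.14 to 0.27, Trbc2 −0.90 to 0.30, Trdc −1.03 to 0.33, Cd3d −0.70 to 0.17, Cd3e −0.65 to 0.71, Cd247 −0.34 to 0.10, Lck −0.33 to 0.27, Zap70 −0.70 to 0.23, Lat −0.45 to 0.21, Cd2 −0.39 to 0.45, Cd5 −0.61 to 0.44, Cd8a −1.40 to 0.87, Cd8b1 −0.094 to 1.19, Cd27 −0.59 to 0.10, Cd28 −0.36 to 0.39, Icos −0.78 to 0.61, Foxp3 −0.37 to 0.17, Tbx21 −0.87 to 0.12, Eomes −0.64 to 1.13, Gata3 −1.16 to 0.56, Tox −0.041 to 0.73, Ncr1 −0.78 to 0.040, Klrb1c −0.20 to 0.21, Klrd1 −0.52 to 0.056, Klrk1 −0.18 to 0.16, Nkg7 −0.47 to 0.21, Prf1 −1.15 to 0.059, Gzma −0.71 to 0.076, Xcl1 −0.88 to 0.19, Il2rb −0.56 to 0.26, Itgae −0.52 to 0.29. The other 12 tested genes kept their sign in these runs, with these ranges: Trac 0.51 to 0.996, Cd3g −1.24 to −0.26, Cd4 −0.80 to −0.45, Gzmb −0.91 to −0.25, Gzmc −1.79 to −0.20, Ifng −7.04 to −0.87, Il2rg −0.97 to −0.051, Il7r −0.87 to −0.35, Il15ra 0.28 to 0.61, Il15 −0.79 to −0.18, Itgb7 −0.83 to −0.018, Cd69 −1.40 to −0.096. For Trac, Cd4, Gzmb, Ifng, Il7r, Il15ra, Il15 and Cd69 a kept sign was fixed in advance, because their groups did not overlap in CPM. Depth limits genes with few counts, such as Ifng on 0 to 19 and Cd3e on 23 to 60 counts a library.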

Other observations

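Some genes of the NK gene complex and the granzyme cluster, named after their values were seen, stood opposite to the list's median. Klra7, an inhibitory Ly49 receptor gene, stood at 29.1 and 23.4 TPM in the knockout, against 13.3 and 15.5 TPM in the control (log2 fold change 0.92, SE 0.31, edgeR unadjusted p 0.0217, not past the threshold after adjustment). Klra4 stood at 14.8 and 24.5 TPM in the knockout, against 11.4 and 16.5 TPM in the control, while Klra9 stood at 3.52 and 2.23 TPM against 4.25 and 4.14 TPM in the control. Klrc1 and Klrb1a, also of the complex, went down, with log2 fold changes of −1.29 (SE 0.59) and −1.01 (SE 0.65). Over the 26 tested NK receptor and adaptor genes outside the list, 17 lay below 0 (65.4%) and 9 above, beside 48.9% of all genes below 0. The Ly49 genes are close paralogs that differ in number and sequence between mouse strains, so their counts are uncertain, and the labels used here give no strain.

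Within the granzyme cluster, Gzmd stood at 17.2 and 10.4 TPM in the knockout, against 6.69 and 9.29 TPM in the control, and Gzme at 6.76 and 3.57 TPM against 2.11 and 2.49 TPM in the control. In both, the knockout libraries lay above the controls, whereas Gzmb lay below them, and none passed the test. These genes are close paralogs as well, and the split of reads among them was not tested.

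Cytokine genes at very low counts went in both directions, and those tested did not pass. Il12b, which encodes a subunit of interleukin 12, had 1 and 1 counts in the knockout, against 14 and 14 counts in the control. Its log2 fold change was −3.47 (SE 0.87, edgeR unadjusted p 0.0056). Il5 had 5 and 2 counts in the knockout, against 18 and 16 in the control (log2 fold change −2.07, SE 0.75, edgeR unadjusted p 0.0288). Il9 had 14 and 11 counts in the knockout, against 2 and 11 counts in the control. Il12a, under the filter of the test, had 2 and 3 counts, against 0 and 0 in the control. Il18r1, a receptor gene for interleukin 18, stood at 3.21 and 3.05 TPM in the knockout, against 4.28 and 10.02 TPM in the control (edgeR unadjusted p 0.0434, not past the threshold after adjustment).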
